A study of Ettlia oleoabundans with 10 samples.

Results

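In cultures of the unicellular green alga Ettlia oleoabundans, 180 of 10122 scaffold families (1.78%) had their highest transcript level of a nitrate series at 0.75 mM nitrate. Each was at least 2-fold above every other nitrate culture. The families were chosen on the scale log2(value + 1): the level at 0.75 mM had to exceed that at 0, 0.38, 1.5 and 3 mM and in the control by at least 1. Those 6 nitrate libraries therefore chose the families, and their values are given below as a description without a test. The 4 cultures with added NaCl took no part in the choice, and the only test rests on them. A scaffold family is a group of assembled transcript sequences. The table names the families by number, without a gene name or function.

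Nitrate is the nitrogen source of this medium. Green algae take it up through membrane transporters, reduce it to nitrite and then to ammonium, and build the ammonium into glutamine and glutamate. When nitrogen runs short, green algae generally reduce protein and pigment synthesis and store carbon as starch and oil, the property for which Ettlia oleoabundans is known. High salinity is a separate stress that acts through water loss and ion entry. None of this background can be assigned to single families here, because the families carry no annotation.

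Poly(A)-selected RNA of strain UTEX # 1185 was sequenced from 10 cultures, with 1 library for each condition. All were photoautotrophic cultures started at 1000000 cells per ml and kept for 6 days at 25 °C, with continuous illumination of 22 to 28 µmol photons per square metre and second. The nitrate cultures had 0, 0.38, 0.75, 1.5 and 3 mM nitrate, and the NaCl cultures had 75, 150, 300 and 600 mM NaCl. The control, with 9 mM nitrate and 42 mM NaCl, ended the nitrate series at the top and began the NaCl series. The labels give no NaCl concentration for the other nitrate cultures and no nitrate concentration for the other NaCl cultures. Because no condition was repeated, no value below has a replicate error, and a difference between 2 cultures may be one between single libraries only. The cultures were sampled in bulk, so a change in some cells and a smaller change in all cells cannot be told apart.

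The values are expression levels scaled for length and depth, so the number of reads behind each is not known. Library totals ran from 362924 to 695913, with 473975 at 0.75 mM nitrate, and 380 to 1263 families per library were listed at 0. The 0.75 mM library was not shifted as a whole: among families above 0 in every library, its median log2 ratio to the control was 0.089. The titles of the 0.38 mM nitrate and 150 mM NaCl libraries carry codes beginning with RAA, unlike the other titles, and the sources used here do not explain them. Without the 0.38 mM library the same criterion would be met by 240 families, against 227 without the 0 mM library and 230 without the control. All 180 remain in each case, because leaving out a library can only add families.

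A level at 0.75 mM above both sides was built into the choice of the families, and the size of the peak varied among them. Their median values were 1.41 and 2.82 at 0 and 0.38 mM, 17.2 at 0.75 mM, and 2.17, 1.88 and 3.10 at 1.5, 3 and 9 mM. Family by family, the level at 0.75 mM was a median 4.58-fold and 3.99-fold above those at 0 and 0.38 mM. It was a median 4.50-fold, 4.39-fold and 3.75-fold above those at 1.5, 3 and 9 mM, all on the log2(value + 1) scale. The median of all 10122 families lay between 14.2 and 16.4 in every nitrate library. Together the 180 families held 2.92% of the library total at 0.75 mM and 0.317% to 0.673% of the total in the other nitrate libraries. Their median lay below that of all families in each nitrate culture except this one.

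**Figure D1:**
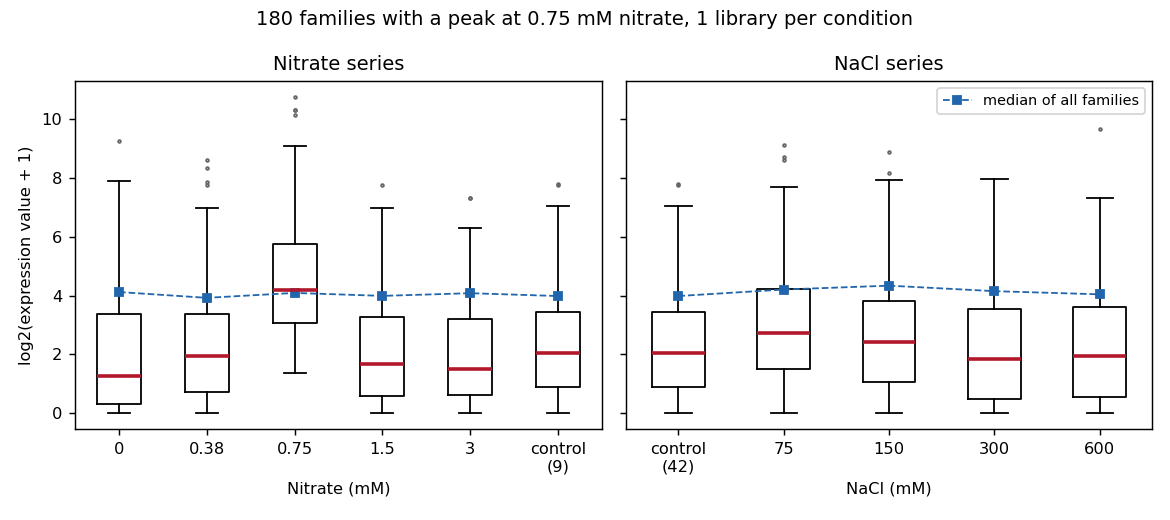
Levels of the 180 families on the log2(value + 1) scale in each nitrate culture (left) and each NaCl culture (right), with the control shown in both panels. Boxes span the quartiles, red lines are medians, whiskers reach the farthest family within 1.5 box lengths, dots are families beyond them, and blue squares give the median of all families. The median of the 180 families reaches that of all families at 0.75 mM nitrate and lies below it elsewhere.

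The margin is the level at 0.75 mM minus that of the next highest nitrate culture. It had a median of 1.51 on the log2 scale (2.85-fold) and a highest value of 3.85. In 44 families it was at least 2, in 13 of these at least 3, and in 41 families it was under 1.2. The culture next to 0.75 mM in level was the control in 66 families, 0.38 mM in 57, 0 mM in 24, 1.5 mM in 21 and 3 mM in 12. At 0.75 mM, 51 families had values of at least 50, 94 had values from 5 to 50 and 35 had values under 5. The 51 high families made up 87.1% of the summed value of the 180 at 0.75 mM, and the 6 highest made up 46.2%.

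Against the control alone, 6.9% of all 10122 families were at least 2-fold higher at 0.75 mM and 4.13% were at least 2-fold lower. All 180 families are among the higher ones by the choice made. Applied to the other cultures inside the concentration range, the same criterion was met by 154 families at 0.38 mM and by no family at 1.5 or 3 mM. The opposite criterion, at least 2-fold below every other nitrate culture, was met at 0.75 mM by 11 families. These counts describe single libraries and have no test.

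The family with the highest value at 0.75 mM was 1765_c0. Its expression values were 238 and 317 at 0 and 0.38 mM, 1706 at 0.75 mM, and 216, 159 and 216 at 1.5, 3 and 9 mM. It was thus well expressed in every nitrate culture and stood out at 0.75 mM alone, by 2.42 on the log2 scale over 0.38 mM. At 75, 150, 300 and 600 mM NaCl it had 202, 129, 110 and 85.5, all below the control.

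Family 600_c0 combined a high value at 0.75 mM with a wide margin. It had 89.0 and 65.4 at 0 and 0.38 mM, 1238 at 0.75 mM, and 47.6, 41.5 and 105 at 1.5, 3 and 9 mM, a margin of 3.54. At 75 mM NaCl it had 554, its second highest value of the 10 cultures, followed by 240, 46.2 and 14.6 at 150, 300 and 600 mM. Family 1427_c0 had 87.9 and 34.1 at 0 and 0.38 mM, 1123 at 0.75 mM, and 97.6, 76.5 and 132 at 1.5, 3 and 9 mM, a margin of 3.08. Its values at 75, 150, 300 and 600 mM NaCl were 384, 147, 220 and 120. Both families were thus above the control at 75 mM NaCl, and from 150 to 600 mM 1427_c0 was within 2-fold of the control, whereas 600_c0 ended more than 2-fold below it.

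The widest margin of all was that of 2647_c0, 3.85 over the control. Its values were 1.90 and 10.1 at 0 and 0.38 mM, 529 at 0.75 mM, and 22.1, 14.7 and 35.7 at 1.5, 3 and 9 mM. The other widest margins among families with a value of at least 5 at 0.75 mM were 3.74 for 7153_c0 and 3.55 for 6788_c0. Family 7153_c0 had 0.24 and 1.51 at 0 and 0.38 mM, 74.7 at 0.75 mM, and 2.15, 1.25 and 4.66 at 1.5, 3 and 9 mM. The values of 6788_c0 were 2.56 and 7.16 at 0 and 0.38 mM, 104 at 0.75 mM, and 4.82, 5.25 and 7.93 at 1.5, 3 and 9 mM. In these 3 families the value without nitrate was below that of every other nitrate culture.

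The flanks of the peak were compared as the mean level at 0 and 0.38 mM against that at 1.5, 3 and 9 mM. In 155 families these flank means were within 2-fold of each other, although single cultures could differ by more, as in 7153_c0. In 9 families the low-nitrate side was at least 2-fold higher, and in 16 it was at least 2-fold lower. These classes were set after the values were seen.

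The 9 families with a raised low-nitrate side included 47_c0 and 560_c0, among the 6 highest at 0.75 mM. Family 47_c0 had 603, 382 and 1243 at 0, 0.38 and 0.75 mM, and was listed at 0, 0.12 and 0.05 at 1.5, 3 and 9 mM. Family 560_c0 had 218, 229 and 542 at 0, 0.38 and 0.75 mM, and was listed at 0, 0.06 and 0.12 at 1.5, 3 and 9 mM. In both, nearly all signal of the nitrate series lay at 0.75 mM and below, so that the 0.75 mM culture was the top of a broad high range. The margins of 47_c0 and 560_c0 were 1.04 and 1.24. The ratio of 47_c0 to 560_c0 stayed between 1.34 and 2.77 in the 7 libraries where both had a value of at least 1. At 75, 150, 300 and 600 mM NaCl, 47_c0 had 57.5, 8.82, 80.2 and 17.1, and 560_c0 had 21.1, 6.58, 33.9 and 9.84. Both were therefore also above the control in all 4 NaCl cultures. They were also 2 of the 3 families lying farthest below their neighbours at 150 mM, the library with the RAA code, with departures of -2.81 and -1.87 on the log2 scale.

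The third was 10268_c0, with 16.1, 0.61, 15.4 and 1.37 at 75, 150, 300 and 600 mM NaCl and a departure of -3.38. It was also low in the 0.38 mM nitrate library, with 0.22 there against 1.50 without nitrate and 8.98 at 0.75 mM. Among the 16 families with a lowered low-nitrate side were 2647_c0 and 4395_c0, of which 4395_c0 is named after its values were seen. Family 4395_c0 had 0.77 and 3.30 at 0 and 0.38 mM, 78.5 at 0.75 mM, and 22.9, 19.9 and 22.1 at 1.5, 3 and 9 mM. Its peak at 0.75 mM thus stood between a moderate level with ample nitrate and a low level without it.

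**Figure D2:**
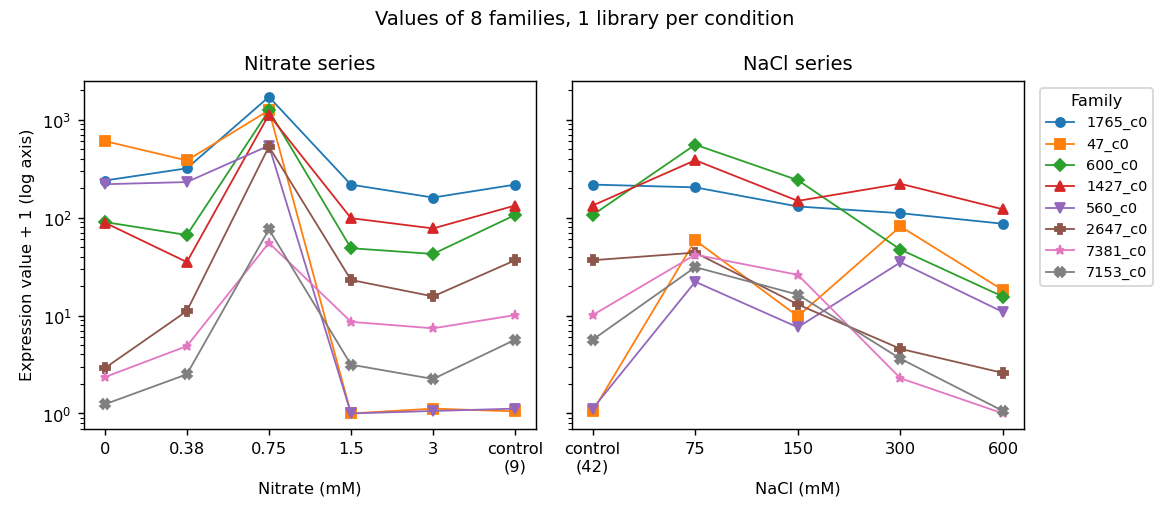
Expression value + 1, on a log axis, of 8 families in the nitrate cultures (left) and the NaCl cultures (right), 1 point per library. All 8 have their top value of the nitrate series at 0.75 mM, 47_c0 and 560_c0 stay high below it, and 600_c0, 2647_c0, 7153_c0 and 7381_c0 decline from 75 to 600 mM NaCl.

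Close to the threshold the peak was small. The 3 families just inside were 1353_c0, 12895_c0 and 8934_c0, with margins of 1.0022, 1.0031 and 1.0045. Their values at 0.75 mM were 148, 3.71 and 15.2, against 73.4, 1.35 and 7.08 in the next highest nitrate culture. Just outside were 22742_c0, 43985_c0 and 7090_c0, with margins of 0.9979, 0.996 and 0.9941. Their values at 0.75 mM were 5.99, 2.61 and 40.6, against 2.50, 0.81 and 19.9 in the next highest culture.

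No 2 of the 180 had the same scaffold number, and 5 (2.78%) shared a number with any other family of the table, against 4.92% of all families.

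Over all 10 cultures, 0.75 mM nitrate was the highest in 158 of the 180 families. In the other 22 an NaCl culture was higher: 75 mM in 10, 600 mM in 9 and 150 mM in 3. At 75, 150, 300 and 600 mM NaCl, 122, 130, 156 and 150 families were at least 2-fold below their 0.75 mM nitrate level. The families were chosen for a high level at 0.75 mM, so these counts and the 158 above are a description. The same shares over all families were not counted. Their median value was 3.10 in the control, and 5.64, 4.38, 2.62 and 2.88 at 75, 150, 300 and 600 mM NaCl. Their share of the library total was 0.436% in the control and 0.699%, 0.496%, 0.316% and 0.443% in the same 4 NaCl cultures. The mild salt culture, at 75 mM, thus had the highest median after 0.75 mM nitrate. Its share was also next in size, though close to the 0.673% at 0.38 mM nitrate.

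**Figure D3:**
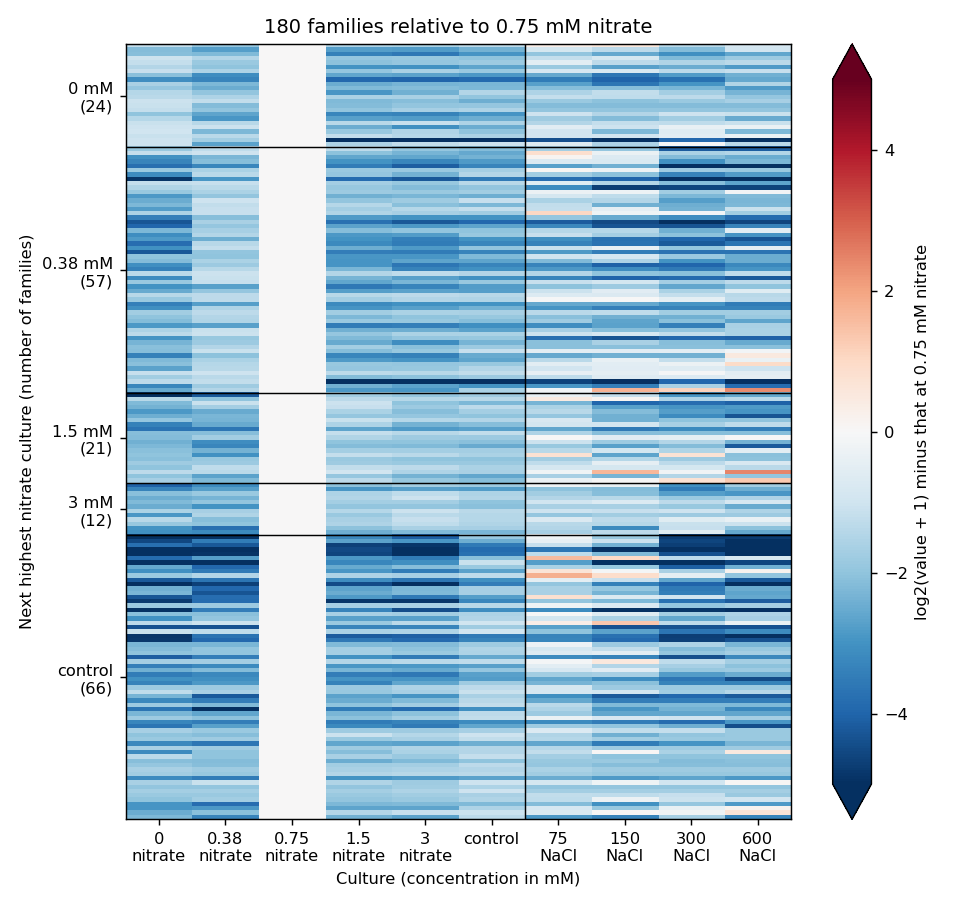
Level of each of the 180 families (rows) in the 10 cultures (columns), as log2(value + 1) minus that at 0.75 mM nitrate, which is 0 by construction; colours end at 5 and -5. Rows are grouped by the next highest nitrate culture and, within groups, run from the lowest to the highest difference between 300 and 75 mM NaCl. Red cells, where a culture is above 0.75 mM nitrate, occur in the NaCl columns only.

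At 75 mM NaCl, 36 of the 180 families (20%) were at least 2-fold above every nitrate culture other than 0.75 mM, where 2.34% of all families were. At 150 mM this held for 33 families, where it held for 4.72% of all families. At 300 and 600 mM it held for 11 and 19 families, and for 6.32% and 14.5% of all families. Those nitrate libraries had to lie below 0.75 mM for a family to be chosen, so these shares are a description. With scaling by median ratios the numbers at 150 and 300 mM were 17 and 5, and the shares of all families under that scaling were not counted. In all, 55 families met this in at least 1 NaCl culture. The matching share of all families was not counted, and at 600 mM alone it was already 14.5%. Family 4724_c0, the most abundant at 0.75 mM of the 10 that were highest at 75 mM NaCl, had 168, 57.7, 48.1 and 15.2 at 75, 150, 300 and 600 mM NaCl. At 0.75 mM nitrate it had 94.9, and it had 3.99 to 13.2 in the other nitrate cultures. Of the 9 families highest at 600 mM NaCl, 1353_c0 was the most abundant, with 129, 471, 132 and 810 at 75, 150, 300 and 600 mM NaCl. Its value at 0.75 mM nitrate, 148, was below those at 150 and 600 mM NaCl.

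The NaCl cultures gave values that the choice of families had not used, and there many of the families were lower at 300 than at 75 mM NaCl. Families entered this comparison if they averaged at least 1 over the 4 NaCl libraries, which held for 137 of the 180 and for 9309 in all. The other 43 families had values of 1.61 to 28.6 at 0.75 mM nitrate, with a median of 3.62, and at most 2.29 in any NaCl library. Because the average includes 75 mM, a family could enter through a high value there alone. One such family was 4477_c0, with 5.44, 0, 0 and 0.83 at 75, 150, 300 and 600 mM NaCl. It is counted among the 57 lower families below, as are 7688_c0 and 15900_c0, which entered in the same way. The 57, and the share of all families beside it, therefore include families favoured by the filter. With the average taken without 75 mM, 126 of the 180 passed, and the comparison below was not repeated for them. At 300 against 75 mM NaCl, 57 of the 137 families (41.6%) were at least 2-fold lower, where 6.79% of all families tested were. At least 2-fold higher were 4 families (2.92%), where 5.55% of all were. The median difference was -0.71 on the log2 scale for the 137 families and 0.031 for all families tested, and 107 of the 137 were below 0.

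The 57 families had a median value of 2.55 at 300 mM, against 13.0 at 75 mM, where their values ran from 1.69 to 554. In 42 of them the value at 150 mM lay between those at 75 and 300 mM, and 42 were also at least 2-fold below 75 mM at 600 mM. These 2 counts were not made for the 632 tested families of the whole table that were at least 2-fold lower at 300 mM. An order of 75 above 150 above 300 mM was found in 54 of the 137 families (39.4%), where 9.45% of all families had it. Among families with a mean of at least 5, which rest on higher values, 34 of 90 (37.8%) were at least 2-fold lower at 300 mM, where 5.17% of all families were. With median-ratio scaling 55 of 134 families were lower, where 6.65% of all were. These are differences between 2 single libraries.

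**Figure D4:**
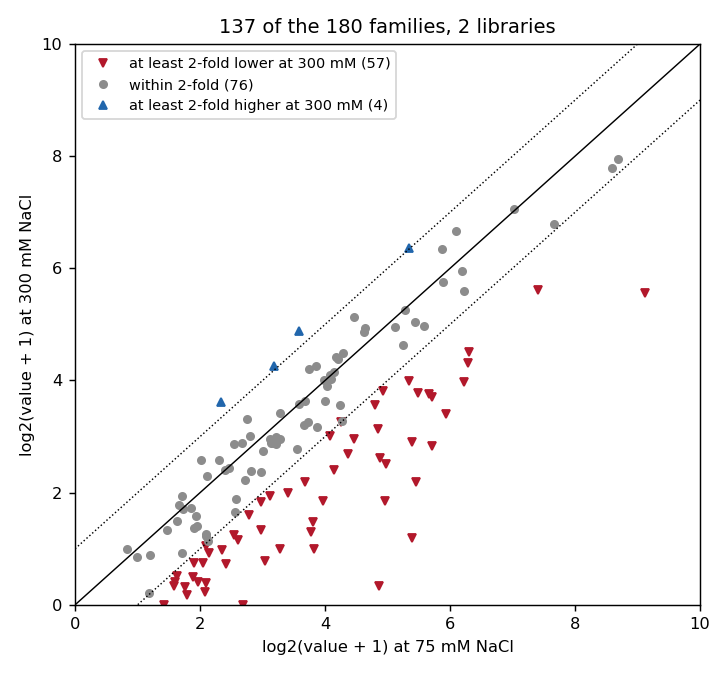
Level at 300 mM NaCl (vertical axis) against that at 75 mM NaCl (horizontal axis), both as log2(value + 1), for the 137 families with a mean of at least 1 in the NaCl libraries. The solid line marks equal levels and the dotted lines a 2-fold difference; 57 families lie on or below the lower dotted line and 4 on or above the upper one.

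At the next step of salt the shares lay closer to those of all families. At 600 against 300 mM, 17 of the 137 families (12.4%) were at least 2-fold lower and 21 (15.3%) at least 2-fold higher, where 10.9% and 16.2% of all families were. The median difference was 0.033 for the 137 families and -0.11 for all. At 150 mM, 9 families (6.57%) lay at least 2-fold below the mean of 75 and 300 mM and 12 (8.76%) at least 2-fold above, where 6.09% and 10% of all families did. In the library with the RAA code the shares were thus near those of all families. The highest of the 4 NaCl values was at 75 mM in 68 of the 137 families (49.6%), where it was there in 16.5% of all families.

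**Figure D5:**
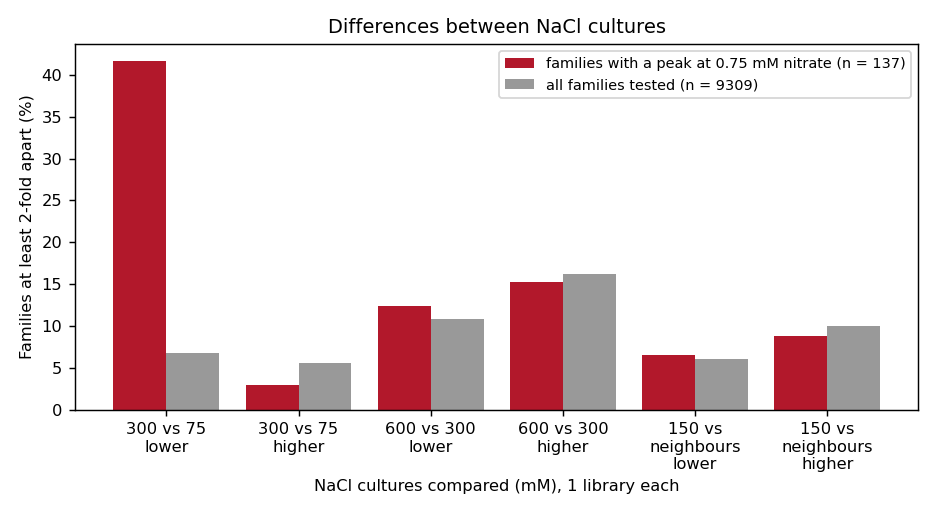
Percentage of families at least 2-fold apart between NaCl cultures, for the 137 families with a peak at 0.75 mM nitrate (red) and for all 9309 families tested (grey). Neighbours of 150 mM are the mean of 75 and 300 mM. The bars differ most for families lower at 300 than at 75 mM, 41.6% against 6.79%.

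The lower level at 300 than at 75 mM NaCl was counted in classes of the nitrate series, set after the values were seen. It was found in 29 of the 42 tested families whose next highest nitrate culture was the control (69%), in 16 of 44 with 0.38 mM next (36.4%), in 7 of 20 with 1.5 mM next, in 2 of 11 with 3 mM next and in 3 of 20 with 0 mM next. All tested families were sorted in the same way by the highest of those 5 nitrate cultures. Among them 14.4% were at least 2-fold lower at 300 mM where the control was highest, 10.5% where 0.38 mM was, 16% where 1.5 mM was, 5.34% where 3 mM was and 2% where 0 mM was. The families were also sorted by their level without nitrate. Of 32 families at least 2-fold below the control at 0 mM nitrate, 21 were at least 2-fold lower at 300 than at 75 mM NaCl (65.6%), where 28.2% of all such families were. Of 97 families within 2-fold of the control at 0 mM nitrate, 35 were (36.1%), where 4.26% of all such families were. In the third class, higher at 0 mM nitrate than in the control by 2-fold or more, it was 1 of 8 families, where 3.86% of all were. In the whole table, too, the share was highest among families that were low without nitrate.

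Across 75 to 600 mM the slope on the rank of NaCl was tested in all 9309 families with limma on log2(value + 1). It passed in 7 of the 137 families (5.11%), all lower with more NaCl (Benjamini-Hochberg adjusted p under 0.05), where 0.333% of all families fell and 0.14% rose. No family of the 137 rose by this test, and at an unadjusted p under 0.05, 3 rose and 30 fell (limma), where 5.88% and 5.39% of all families did. The fitted slope was below 0 in 100 of the 137 families (73%) and in 57.1% of all, with medians of -0.245 and -0.043 log2 units per step. The count of 7 depended on the scaling and on single libraries. It was 0 with median-ratio scaling, with equal library totals and without the 75 or the 600 mM library. It was 17 without the 150 mM library and 19 without the 300 mM library, where calls over all families rose too. In either direction these numbered 411 of 9440 and 604 of 9427, against 44 of 9309 in the main fit.

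By ID the 7 families were 600_c0, 7381_c0, 7153_c0, 2647_c0, 7495_c0, 5303_c0 and 4724_c0. Their values were lower at each step from 75 to 600 mM, which a steep fitted fall with little scatter nearly requires. In all 7 the control was the next highest nitrate culture after 0.75 mM, as in 42 of the 137 families tested. Among all 9309 tested families, it was the highest of those 5 nitrate cultures in 1080. That the 7 were lower at 0 mM nitrate than in the control follows from this order. All 7 were above the control at 75 mM NaCl, and 6 of them ended below it at 600 mM, 4724_c0 being the exception. How often other families lay above the control at 75 mM or below it at 600 mM was not counted. Slopes ran from -1.04 to -1.97 log2 units per step, with adjusted p (limma) from 0.00634 to 0.0392.

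The steepest slope was that of 7381_c0, which had 9.10 in the control and 40.8, 25.0, 1.29 and 0 at 75, 150, 300 and 600 mM NaCl. It fell by 1.97 ± 0.28 log2 units per step (SE; limma, adjusted p = 0.0288). In the nitrate series it had 1.35 and 3.87 at 0 and 0.38 mM, 54.2 at 0.75 mM, and 7.62 and 6.40 at 1.5 and 3 mM. Family 600_c0, whose values are given above, fell by 1.78 ± 0.16 (SE; limma, adjusted p = 0.00634). Family 7153_c0 had 30.2, 15.3, 2.62 and 0.06 at 75, 150, 300 and 600 mM NaCl and fell by 1.68 ± 0.24 (SE; limma, adjusted p = 0.0288). All 3 were higher at 75 mM than in the control. With the control added as the lowest NaCl level the slopes of the 3 were -1.09, -0.91 and -0.79, and none passed (limma, adjusted p = 0.173, 0.196 and 0.266).

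The 4 families at least 2-fold higher at 300 than at 75 mM NaCl were 6292_c0, 8352_c0, 9319_c0 and 9425_c0, named because there were so few. At 75, 150, 300 and 600 mM NaCl, 6292_c0 had 39.6, 48.0, 81.2 and 124, beside 49.2 at 0.75 mM nitrate. Family 8352_c0 had 11.0, 43.2, 28.4 and 67.9 in the same NaCl cultures, beside 12.2 at 0.75 mM nitrate. Both were higher at 600 mM NaCl than in any nitrate culture, whereas 9319_c0 and 9425_c0 were back at 1.71 and 3.97 at 600 mM after 11.2 and 18.1 at the level before.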

How the data were processed

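The deposited table lists 10122 scaffold families with a value in every one of 10 libraries. The values were recorded as signal: expression levels scaled by the authors for length and depth, as judged from the deposited values themselves. The sources used here do not say whether they are FPKM or TPM. Per the submitters' processing notes, Bowtie 0.12.8, RSEM 1.2.0 and edgeR 3.0.8 were used, with no role stated. No count can be had from such values, so depth is unknown and no counting interval is given.

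Families were chosen on log2(value + 1), which understates changes of low values. The families, the comparisons and the classes were chosen with earlier results of these data known. The NaCl slope was fitted on the rank of 4 concentrations, with 2 residual degrees of freedom, by limma 3.58.1 under R 4.3.3, the prior variance following the mean level. All families with a mean of at least 1 over those libraries entered, and p-values were adjusted over all of them by the Benjamini-Hochberg method. With no repeated cultures, the error of a slope rests on the scatter of libraries around the fitted line, and curvature counts as error. That scatter was moderated toward the prior variance drawn from all families tested. The printed SE and p-values (limma) therefore rest in part on other families and are not a family's own scatter alone. The control was left out because it had chosen the families. The script was tested on simulated data. Families named were the 6 highest at 0.75 mM, the 4 widest margins, 3 on each side of the threshold, the steepest called slopes and the 3 lowest at 150 mM; others are named as examples after their values were seen. Light and cell density, also in the series title, were not analysed here.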

Additional observations from a re-analysis of the deposited data

How the results depend on the processing

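With the families kept as chosen, the direction of the main difference, lower at 300 than at 75 mM NaCl, held under every alternative run. It was found in 30 to 64 families in place of 57, out of 137, 134 or 90 tested by setting. Of all families 3.07% to 9.78% were lower in these alternatives. The number of families meeting the criterion of a peak was 319 with a pseudocount of 0.1, 93 with 5, 82 at 3-fold and 360 at 1.5-fold. It was 166 with median-ratio scaling, of which 163 were among the 180, and 173 with equal library totals, of which 157 were. It was 145 with a value of at least 5 at 0.75 mM, and 187 to 240 with 1 other nitrate library left out of the criterion. No paired analysis was possible because each condition had 1 library and the labels give no replicate numbers.

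The number of families falling with NaCl (7, limma) was 2 with a pseudocount of 5 or a minimum mean of 5. Over all families 12 and 11 were called there. It was 0 with median-ratio scaling, equal library totals, no filter or no intensity trend, where no family of the whole table was called. It was 3 with concentration in mM and 1 with the control added, which also gave 1 rising family. In those fits 91 and 79 families of the whole table were called. With 1 NaCl library left out, 0 to 19 fell and 0 to 3 rose, while 0 to 604 families of the whole table were called. At an unadjusted p under 0.05 the number falling was 23 to 38 in the other fits and 11 without 75 mM (limma). The log2 of the concentration gives the same fit as the rank by construction. The slopes of 600_c0, 7153_c0 and 7381_c0 stayed below 0 in all 14 alternatives each and lost the call in 7, 9 and 10.

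For 300 against 75 mM, 30 of 137 families were lower and 1 higher with a pseudocount of 5, where 3.07% and 2.11% of all were. With a minimum mean of 5, 34 of 90 were lower, where 5.17% of all were. With equal totals 2 of 134 were higher, where 3.74% of all were. For 600 against 300 mM, 10 of 137 were lower and 7 higher with a pseudocount of 5, where 6.17% and 8.92% of all were. With a minimum mean of 5, 10 of 90 were higher, where 9.38% of all were. Median-ratio scaling divided the libraries of that comparison by factors whose log2 ratio (600 over 300 mM) was -0.191 and gave 16 lower and 26 higher, where 7.15% and 19.1% of all were. For 150 mM against its neighbours, 14 of 137 were lower and 24 higher with a pseudocount of 0.1, where 12% and 13.1% of all were. With a pseudocount of 5 it was 5 and 3 of 137, where 3.27% and 4.15% of all were. With median-ratio scaling it was 13 and 9 of 134, where 6.95% and 7.18% of all were.

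Families at least 2-fold above the other nitrate cultures at 150 mM NaCl numbered 17 with median-ratio scaling, 18 with equal totals, 51 with a pseudocount of 0.1 and 15 with 5; at 300 mM they numbered 5, 5, 17 and 5. A pseudocount of 5 gave 20 at 75 mM and 9 at 600 mM, and 79 families at least 2-fold below 0.75 mM nitrate at 75 mM NaCl. The matching shares of all families under these settings were not counted, and the cause of these changes was not tested.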
